A study of Mus musculus with 4 samples.

Results

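The p53 axis, the Gadd45 family and the BTG/TOB family were compared between 2 populations of haematopoietic stem cells sorted from mouse bone marrow, long-term (LT-HSC) and short-term (ST-HSC). The genes were Trp53, Mdm2, Ccng1, Gadd45a, Gadd45b, Gadd45g, Btg1, Btg2, Btg3 and Tob1, and every probe set of the array annotated to exactly 1 of these symbols was taken. This gave 18 of the 45037 probe sets that were not controls, and they covered 8 of the 10 genes, of 18193 genes named on the array. Trp53 was not analysed here, and Btg3 was left out because its only probe set also carried a second symbol. Of the 18 probe sets, 16 lay above the filter on dim probe sets and were tested, and the other two, 1 of Mdm2 and 1 of Tob1, are given by their values.

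Each group had 2 arrays, LT-HSC replicates 1 and 2 and ST-HSC replicates 2 and 3. All cells came from mice on a C57BL/6 background (spelled C57B/6 for 3 of the samples) without the Mx-Cre transgene. Poly(I:C), a double-stranded RNA mimic that triggers an interferon response, had been injected 7 times into all of them. Both gates took Lin-cKit+Sca1+ cells without CD135, and CD34 set them apart, absent from LT-HSC and present on ST-HSC. The donors of 3 samples were 7.5 weeks old and were killed 4 weeks after the last injection. For ST-HSC replicate 3 the age was 8.5 weeks and the interval 3 weeks. For the ST-HSC samples the tissue label names LT-HSC although its gate is CD34+, so the titles set the groups. The labels do not say whether mice were pooled or whether both LT-HSC samples are of different animals, so p-values measure the spread between these arrays, which may be technical in that pair.

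The transcription factor p53 is held at a low level by the ubiquitin ligase Mdm2, which is itself a p53 target, so that the pair forms a negative feedback loop. Stress releases p53, which then activates genes that stop the cell cycle, repair DNA or start apoptosis, and in the marrow p53 is known for restraining the cycling of stem cells. Gadd45 proteins are small stress-induced regulators of p38 and JNK kinase signalling and of cell cycle progression, and BTG and TOB proteins are antiproliferative adaptors that recruit the CCR4-NOT deadenylase to messenger RNAs.

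The arrays had median intensities of 19.1 to 28.3, and without counts their number sets the limit of the precision. Cd34 (1416072_at), the marker that separates the gates, read 18.3 and 23.5 on the LT-HSC arrays and 841 and 1142 on the ST-HSC arrays. Of 7 tested stem and progenitor cell sort markers, 3 were called higher in ST-HSC by the test below, 0 in LT-HSC, and 4 did not pass. Kit, required by both gates, was called on 1 of 2 probe sets, with 397 and 382 for LT-HSC against 684 and 907 for ST-HSC. Flt3 (CD135), excluded by both gates, read 62.3 and 53.4 against 258 and 134 and did not pass. The arrays also differed in other cells' markers. The summed intensity of 9 plasma cell markers was 52462 and 52897 for LT-HSC against 1805 and 2931 for ST-HSC. That of 9 B cell markers was 4696 and 5234 against 289 and 388. None of either list was at 0 on all arrays. Of the B cell markers, 6 were above the filter and 4 were called higher in LT-HSC by the test below. Pax5 and Ebf1 read 6.49 to 41.1 over the 4 arrays and did not pass. In turn, 9 markers of maturing granulocytes summed to 53598 on ST-HSC replicate 3 and to 534 to 4243 on the other arrays. The 3′ to 5′ log2 ratio of the beta-actin control was 2.72 on ST-HSC replicate 3 and 4.15 to 4.24 on the others, and that of the Gapdh control 2.70 against 3.72 to 3.88. The part of these differences in the results below was not tested.

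The promoters of 5 genes on which the results turn are shown. Each is the 250 bases before a RefSeq start site in assembly GRCm38.p6, 5′ to 3′ on the gene's own strand. Capitals mark matches on either strand to the core of the cAMP response element (TGACG, reverse CGTCA), to the TATA box (TATAAA) and to the p53 decamer, the 10-base unit of the p53 response element.
Btg2, chr1:134079156-134079405, - strand: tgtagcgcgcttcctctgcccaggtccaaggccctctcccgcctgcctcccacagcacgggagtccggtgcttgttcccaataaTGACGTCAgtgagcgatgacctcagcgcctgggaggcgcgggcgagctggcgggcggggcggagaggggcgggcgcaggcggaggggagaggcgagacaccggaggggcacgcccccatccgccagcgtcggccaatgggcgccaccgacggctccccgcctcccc
Btg1, chr10:96616751-96617000, + strand: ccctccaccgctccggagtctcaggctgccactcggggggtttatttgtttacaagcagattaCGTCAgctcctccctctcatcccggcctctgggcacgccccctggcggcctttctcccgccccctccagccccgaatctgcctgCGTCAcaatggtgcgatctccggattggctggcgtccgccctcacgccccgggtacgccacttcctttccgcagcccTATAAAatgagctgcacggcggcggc
Gadd45b, chr10:80929841-80930090, + strand: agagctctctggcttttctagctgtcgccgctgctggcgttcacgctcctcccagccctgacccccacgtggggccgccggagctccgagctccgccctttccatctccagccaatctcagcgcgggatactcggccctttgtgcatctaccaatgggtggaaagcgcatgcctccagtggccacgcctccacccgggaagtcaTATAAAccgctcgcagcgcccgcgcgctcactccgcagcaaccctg
Gadd45a, chr6:67037408-67037657, - strand: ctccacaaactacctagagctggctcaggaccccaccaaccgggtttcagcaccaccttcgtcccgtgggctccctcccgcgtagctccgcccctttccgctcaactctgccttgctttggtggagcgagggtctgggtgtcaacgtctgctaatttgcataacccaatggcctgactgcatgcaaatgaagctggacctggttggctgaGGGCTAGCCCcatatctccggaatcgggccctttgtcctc
Ccng1, chr11:40755287-40755536, - strand: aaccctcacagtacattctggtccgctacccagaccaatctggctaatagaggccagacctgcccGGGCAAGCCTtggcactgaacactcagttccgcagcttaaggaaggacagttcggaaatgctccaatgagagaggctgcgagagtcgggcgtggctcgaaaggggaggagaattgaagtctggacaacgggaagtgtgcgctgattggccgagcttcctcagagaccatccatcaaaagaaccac

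The Btg2 promoter held the full palindromic cAMP response element TGACGTCA, which contains the core on both strands, at positions -166 to -159 from the start site. Of 32851 promoter windows of this length in the RefSeq table, 1.55% held that octamer and 17.8% held the core. Among the 8 genes with a probe set, the core was present in Btg1, Btg2 and Tob1 and the TATA box, found in 12.4% of all windows, in Btg1, Gadd45b, Gadd45g and Tob1. The p53 decamer, found in 7.13% of all windows, matched in Ccng1 (-185 to -176), Gadd45a (-40 to -31) and Mdm2 (-186 to -177). The CArG box of serum response factor was found in 0 of the 8 windows and in 1.47% of all. For Ccng1 part of the window lay inside the annotated span of the gene (chr11:40748552-40755309). For Tob1 the whole window (chr11:94211204-94211453) lay inside that span (chr11:94209842-94215495). A match is a description of these letters and not a measured binding site.

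Btg2 and Gadd45b were higher in LT-HSC than in ST-HSC, each on 2 probe sets and by 4.31- to 9.57-fold, and Ccng1 was 3.27-fold higher on 1 of its 3 probe sets. No probe set of these genes was called higher in ST-HSC, and Gadd45a came closest without passing the test. Differences were taken on quantile-normalized log2(intensity + 16) values as LT-HSC minus ST-HSC and tested with limma, with Benjamini-Hochberg adjustment over 27022 probe sets and a threshold of 0.05. Folds are on that scale, which understates the change of dim probe sets. Of the 16 tested probe sets, 5 were called higher in LT-HSC, 0 lower, and 11 did not pass. In limma, 6.72% of all tested probe sets were called higher in LT-HSC and 5.48% in ST-HSC, and 7 of the 16 and 8209 of the 27022 had an unadjusted p under 0.05. Both LT-HSC arrays lay above both ST-HSC arrays in 10 of the 16, against 26.9% of all probe sets, and both ST-HSC arrays above both LT-HSC arrays in 2, against 34.2%. The median log2 difference was 0.65 over the 16 and -0.08 over all. In bulk samples, fewer cells of a type and less RNA per cell cannot be told apart.

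**Figure D1:**
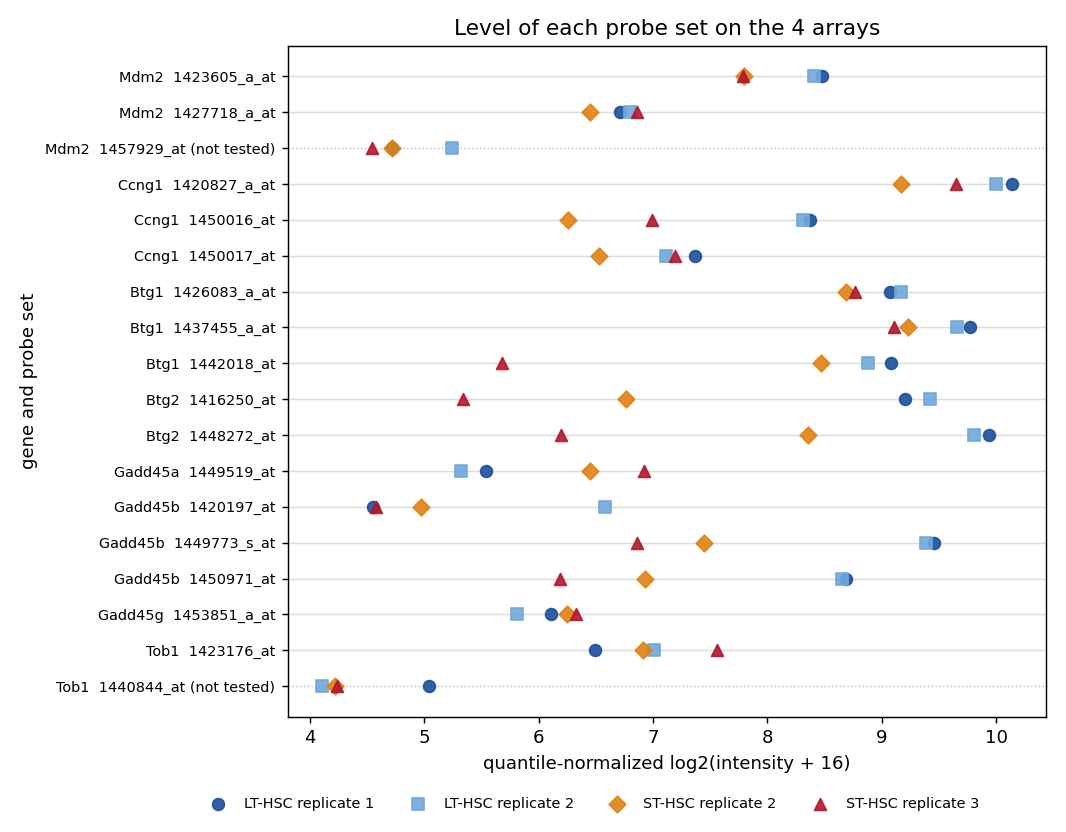
Quantile-normalized log2(intensity + 16) of the 18 probe sets (x axis) on each of the 4 arrays, 1 row per gene and probe set, with a symbol and colour for each array. The LT-HSC symbols sit to the right of both ST-HSC symbols in both Btg2 rows and in 2 of 3 Gadd45b rows, and ST-HSC replicate 3 is far to the left in the Btg2 rows and in Btg1 1442018_at.

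Of the p53 axis, Mdm2 was measured by 3 probe sets. The brightest, 1423605_a_at, read 331 and 323 for LT-HSC against 225 and 204 for ST-HSC. The groups did not overlap, but the difference of 0.65 (SE 0.28, 95% interval -0.01 to 1.31) did not pass (limma adjusted p = 0.171). Mdm2 1427718_a_at read 74.5 and 100.2 for LT-HSC against 82.1 and 98.0 for ST-HSC, with overlapping groups and a difference of 0.10 (95% interval -0.65 to 0.86). The dim Mdm2 1457929_at lay under the filter, with 6.70 and 24.9 for LT-HSC against 11.1 and 8.55 for ST-HSC. Neither tested probe set was called, and the interval of the brightest still spans a rise of up to 1.31 on the log2 scale in LT-HSC.

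Ccng1 encodes cyclin G1, a p53 target that recruits the phosphatase PP2A to Mdm2. Ccng1 1450016_at read 303 and 301 on the LT-HSC arrays and 69.5 and 110 on the ST-HSC arrays (log2 means 8.34 ± 0.04 and 6.62 ± 0.52, SD, n = 2 each). Both LT-HSC arrays were higher than both ST-HSC arrays, and the difference of 1.71 (SE 0.35) passed (limma adjusted p = 0.0278). Ccng1 1420827_a_at, the brightest of the 3, read 1197 and 1041 against 534 and 791. Its groups did not overlap, and its difference of 0.66 (SE 0.26, 95% interval 0.04 to 1.28) did not pass (adjusted p = 0.142). Ccng1 1450017_at read 133 and 126 against 88.1 and 128, so ST-HSC replicate 3 lay between the LT-HSC arrays, and its difference was 0.38 (SE 0.35). The probe sets of Ccng1 therefore pointed the same way with sizes from 0.38 to 1.71, and their mean per gene, 0.92 (SE 0.29), did not pass (adjusted p = 0.0698). On all 3, the ST-HSC arrays differed by 0.48 to 0.74, with replicate 3 the higher.

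In the Gadd45 family, Gadd45b, an early stress and cytokine response gene first known from myeloid differentiation, read 709 and 657 for LT-HSC against 176 and 98.0 for ST-HSC on 1449773_s_at. The LT-HSC arrays were close together and both far above the ST-HSC arrays (log2 means 9.42 ± 0.05 and 7.15 ± 0.42, SD, n = 2 each), a 4.83-fold difference (2.27, SE 0.32, limma adjusted p = 0.00806). The second probe set, Gadd45b 1450971_at, read 390.4 and 385 against 120.1 and 55.6, a 4.31-fold difference (2.11, SE 0.35, adjusted p = 0.0145). The remaining one, Gadd45b 1420197_at, was dim and split the LT-HSC pair, with 4.47 on replicate 1 and 84.6 on replicate 2 against 16.2 and 9.36 for ST-HSC. Its groups overlapped, and its difference of 0.79 (SE 0.63) did not pass (adjusted p = 0.439).

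Gadd45a, the DNA damage-inducible family member and a direct p53 target, lay the other way. Its only probe set, 1449519_at, read 23.9 and 27.3 on the LT-HSC arrays and 82.7 and 103 on the ST-HSC arrays. Both ST-HSC arrays were above both LT-HSC arrays, and the difference of -1.25 (SE 0.33, 95% interval -2.03 to -0.48) missed the threshold (limma adjusted p = 0.052). The LT-HSC readings lay near the array medians of 19.1 to 28.3, so the size of the difference is uncertain, and it ran from -1.65 with a pseudocount of 1 to -0.73 with a pseudocount of 64. It was called higher in ST-HSC with the arrays centred on their medians or upper quartiles, with no normalization and with a stricter filter (adjusted p = 0.0293 to 0.0858 over all settings with 4 arrays). It was also called in the fit of gene averages over 10916 genes (adjusted p = 0.021), where its values and difference were the same and the SE was 0.25. That fit called 19.6% of all genes. The settings above called 12% to 17.2% of all probe sets, against 12.2% in the main fit. Gadd45g, the family member induced by cytokines, read 42.7 and 44.5 for LT-HSC against 69.0 and 62.3 for ST-HSC. Its groups did not overlap, and its difference of -0.33 (SE 0.31, 95% interval -1.06 to 0.40) did not pass (adjusted p = 0.509). Whether the family members differ from each other in their change was not tested.

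**Figure D2:**
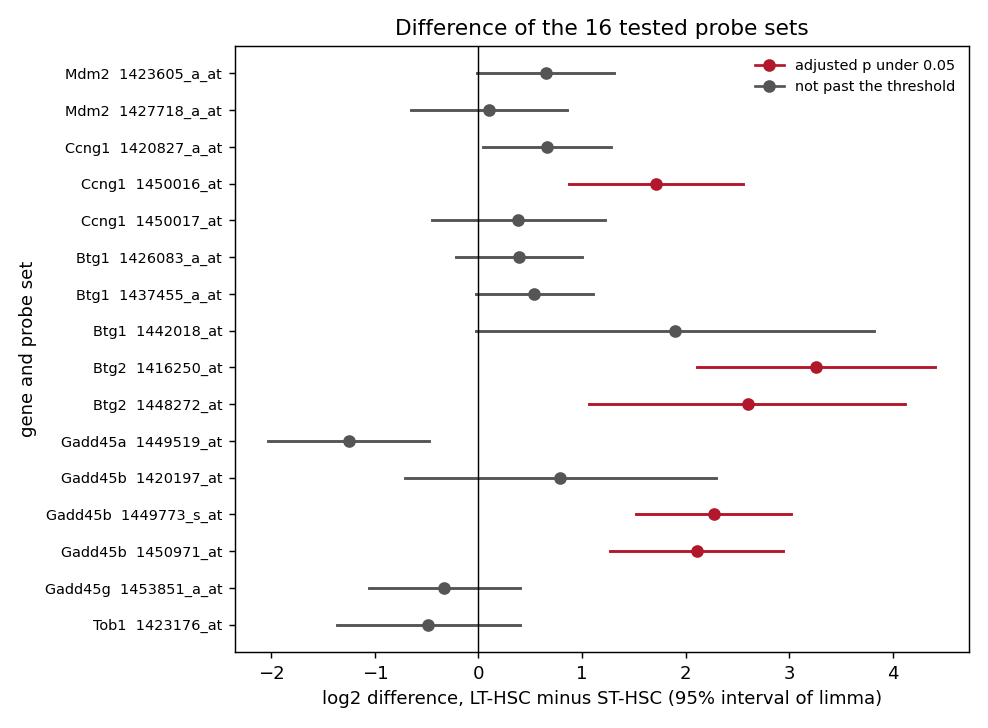
Log2 difference, LT-HSC minus ST-HSC, of the 16 tested probe sets (x axis) with the 95% interval from limma, 1 row per gene and probe set. The 5 called probe sets (red), of Btg2, Gadd45b and Ccng1, lie between 1.71 and 3.26, and Gadd45a lies at -1.25.

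Of the BTG/TOB family, Btg2, an antiproliferative gene that p53 and growth signals induce, had the largest differences of all 16 probe sets. Btg2 1416250_at read 585 and 674 for LT-HSC against 106 and 25.6 for ST-HSC (log2 means 9.31 ± 0.16 and 6.05 ± 1.0, SD, n = 2 each). Both LT-HSC arrays stood well above the ST-HSC arrays, which themselves stood apart (replicate 3 minus replicate 2, -1.42), and the difference was 3.26 (SE 0.48, limma adjusted p = 0.00998), the 267th largest towards LT-HSC among the 27022. Btg2 1448272_at read 1025 and 899 against 326 and 55.9. The same gap between its ST-HSC arrays was -2.16, and its difference was 2.60 (SE 0.64, adjusted p = 0.0463). That second call was lost with a pseudocount of 1, with no filter and without the intensity trend (adjusted p = 0.0521 to 0.0595), while the first held under those settings.

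Btg1, the closest relative of Btg2 and abundant in resting lymphocytes, did not pass on any of 3 probe sets. Btg1 1437455_a_at read 902 and 808 for LT-HSC against 555 and 546 for ST-HSC, a difference of 0.54 (SE 0.24, 95% interval -0.02 to 1.11). Btg1 1426083_a_at read 532 and 566 against 405 and 423, a difference of 0.39 (SE 0.26, 95% interval -0.22 to 1.0). On both, the pairs were tight and did not overlap. Btg1 1442018_at read 537 and 454 against 353 on ST-HSC replicate 2 and 35.2 on ST-HSC replicate 3. The gap between these arrays was -2.80, and the value on replicate 3 made up most of the difference of 1.90 (SE 0.81, limma adjusted p = 0.168), which was 0.50 without it. The other 2 probe sets showed no such gap between the ST-HSC arrays (-0.11 and 0.08).

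Tob1, which restrains the activation of resting T cells, read 61.4 and 117 for LT-HSC against 118 and 172 for ST-HSC on 1423176_at. LT-HSC replicate 2 nearly reached ST-HSC replicate 2, and after normalization the groups overlapped (difference -0.49, SE 0.37, 95% interval -1.37 to 0.40, limma adjusted p = 0.418). The other probe set, Tob1 1440844_at, was under the filter at 12.3 and 1.42 against 3.05 and 3.58.

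The ST-HSC replicates lay further apart than the LT-HSC replicates. Over the 16 probe sets the SD between replicates, pooled, was 0.385 in LT-HSC and 0.741 in ST-HSC, against 0.349 and 0.495 over all tested probe sets. ST-HSC replicate 3 read below replicate 2 on 8 of the 16, among them all 3 of Gadd45b and both of Btg2, and above it on all 3 of Ccng1, on Gadd45a and on Tob1. The calls rested on both LT-HSC arrays. Without LT-HSC replicate 1 or replicate 2, 0 of the probe sets passed (1.54% and 1.58% of all tested probe sets did), although the differences of the 5 changed little: Btg2 1416250_at was at 3.29 and 3.17 (adjusted p = 0.0885 and 0.0914) and Gadd45b 1449773_s_at at 2.16 and 2.32. In those fits the lone LT-HSC array is assumed to vary like the ST-HSC pair. Without ST-HSC replicate 2, 9 were higher in LT-HSC and Gadd45a was lower (-1.46, adjusted p = 0.0174), with 32.5% of all probe sets called. Without ST-HSC replicate 3, 7 were higher in LT-HSC and 0 in ST-HSC, with 22.2% called, and Btg2 1448272_at was at 1.52.

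**Figure D3:**
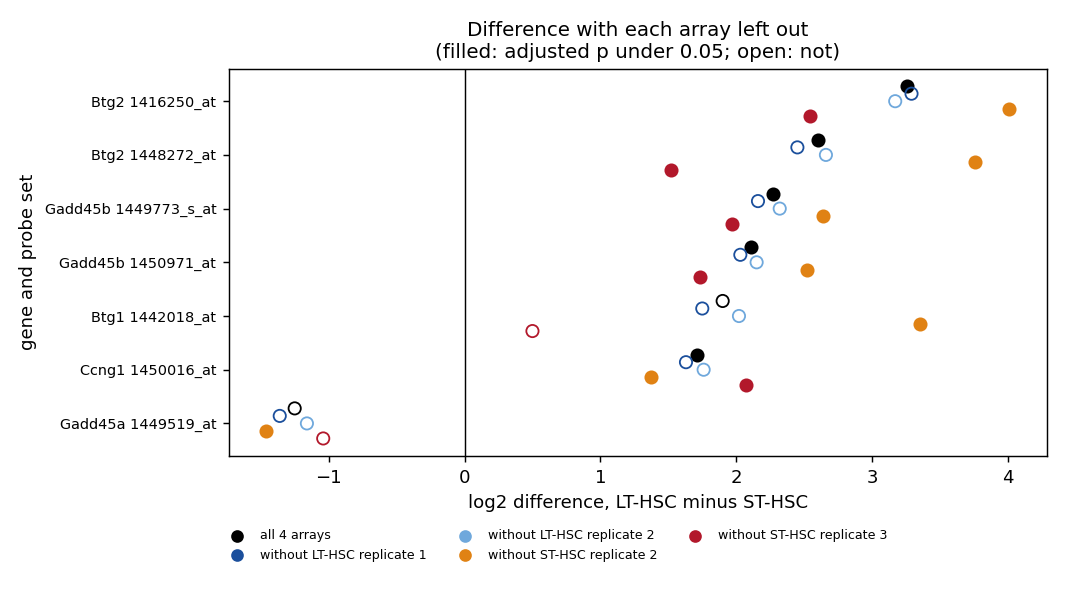
Log2 difference, LT-HSC minus ST-HSC (x axis), of 7 probe sets with all 4 arrays (black) and with each array left out in turn (colours); filled points have an adjusted p under 0.05 in limma and open points do not. The points of Btg2 spread from 1.52 to 4.01 with the ST-HSC array left out, and all points without an LT-HSC array are open.

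Other genes of the pathway came from lists, each gene by its brightest tested probe set. In limma 7.92% of all 12832 genes were called higher in LT-HSC and 6.41% in ST-HSC. Of 24 tested p53 targets outside the 10 genes, 5 passed towards LT-HSC, 1 passed towards ST-HSC and 18 did not pass, with a median difference of 0.50 against -0.08 over all genes. The balance depended on the processing, with 4 and 3 called without normalization. It was 5 and 3 with median or 75th percentile centring and at a threshold of 0.10. With a pseudocount of 1 it was 4 and 2, with no filter 4 and 1, and with a 60th percentile filter or robust eBayes 5 and 2. It also varied with the array left out. Trp53inp1, a p53-induced nuclear protein, read 5763 and 5531 for LT-HSC against 497 and 438 for ST-HSC (3.40, SE 0.20, adjusted p = 0.000335). Pmaip1 (Noxa, a pro-apoptotic BCL2 family protein) read 304 and 230.4 against 18.8 and 4.14. Both passed with any 1 array left out.

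Cdkn1a (p21, the cyclin-dependent kinase inhibitor through which p53 arrests the cycle) read 309.5 and 247 for LT-HSC against 74.8 and 27.3 for ST-HSC, a difference of 2.35. Zmat3, an RNA-binding p53 target, read 334 and 379 against 94.8 and 54.1, a difference of 2.17. Both lost their call without LT-HSC replicate 1 or 2, with differences of 2.12 and 2.56 for Cdkn1a and 2.17 and 2.13 for Zmat3. Without ST-HSC replicate 2 or 3 the differences were 2.81 and 1.87 for Cdkn1a and 2.44 and 1.93 for Zmat3. Tigar and Xpc were named after their values were seen, to complete the count. Tigar, a regulator of glycolysis, rose by 1.28 on 1 of 3 probe sets, and Xpc, a sensor of DNA damage in nucleotide excision repair, was higher in ST-HSC (-1.71, SE 0.35, adjusted p = 0.0266). Neither held without LT-HSC replicate 1 or 2, and Tigar was lost also without ST-HSC replicate 3 (adjusted p = 0.0597) and, with all 4 arrays, without normalization, with a pseudocount of 1 and with no filter (adjusted p = 0.0533 to 0.103).

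Of 20 regulators of p53, 0 were called higher in LT-HSC, 3 lower, and 17 did not pass (median -0.09). The 3 were the checkpoint kinase genes Chek2 (22.0 and 57.8 for LT-HSC against 318 and 319.8 for ST-HSC, difference -2.57) and Chek1 (-2.02) and the nucleolar protein gene Npm1 (-0.93). Mdm4, the partner of Mdm2 in holding p53 inactive, read 730.4 and 749 against 465 and 317 and did not pass (0.87, SE 0.29, limma adjusted p = 0.0967). Its groups did not overlap, and it passed without ST-HSC replicate 2 (1.18) or 3 (0.60). Leaving out LT-HSC replicate 1 or 2 removed the calls of Chek2, Chek1 and Npm1. In those fits Chek2 lay at -2.20 and -2.92, Chek1 at -1.54 and -2.48 and Npm1 at -0.96 and -0.89. Without ST-HSC replicate 2 or 3, Chek2 lay at -2.63 and -2.54, Chek1 at -2.23 and -1.88 and Npm1 at -1.13 and -0.73. How many regulators passed varied with the array left out, as it did over all probe sets. Npm1, called on 1 of its 2 probe sets, also lost its call without normalization, with either centring and without the intensity trend (differences -0.93 to -0.49, adjusted p = 0.0784 to 0.329).

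Of 12 genes for partners and signalling neighbours of Gadd45 proteins, 2 were higher in ST-HSC and 10 did not pass (median -0.49). With median or 75th percentile centring, 1 passed towards each group. Both that passed are genes of proliferating cells that bind Gadd45 proteins, Pcna, the replication clamp (1355 and 1491 for LT-HSC against 2670.3 and 3370 for ST-HSC, difference -1.35), and Cdk1, the mitotic kinase (-2.55). Ppp1r15a (Gadd34, a stress-induced phosphatase subunit) read 1220.4 and 1114 against 675 and 213 and did not pass (1.46, SE 0.51, limma adjusted p = 0.108). It passed with either centring (1.67 and 1.71, adjusted p = 0.0352 and 0.0291) and without ST-HSC replicate 2 (2.36) or 3 (0.64). Among 17 genes for BTG and TOB partners, mostly CCR4-NOT subunits and poly(A)-binding proteins, 1 was called higher in LT-HSC and 1 lower. These were Tnks1bp1 (1.87) and Pabpc4 (-1.09), the latter called on 1 of its 2 tested probe sets. The deadenylase gene Cnot6 lay at -0.83 on its brightest probe set, which did not pass (limma adjusted p = 0.0567). Of its 4 tested probe sets, 3 did not pass and the other did. The list's median was 0.10. The calls of Pcna, Cdk1, Tnks1bp1 and Pabpc4 did not hold when LT-HSC replicate 1 or 2 was left out. With all 4 arrays, Pcna was lost with either centring (adjusted p = 0.0735 and 0.0659). Pabpc4 was lost with either centring, with no filter and without the trend (0.0583 to 0.0894), and Tnks1bp1 with a pseudocount of 64, with no filter and without the trend (0.0504 to 0.0596). With ST-HSC replicate 2 or 3 left out, Pcna lay at -1.55 and -1.18 and Cdk1 at -3.05 and -2.15. In the same fits Tnks1bp1 lay at 2.20 and 1.51 and Pabpc4 at -1.04 and -1.18.

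Immediate early genes, to which Btg2 and Gadd45b are often counted, formed another list. Of 23 tested, 8 were higher in LT-HSC, Myc alone (named after its value was seen) was lower, and 14 did not pass, with a median of 1.71. How many of these genes were called depended on which arrays were kept, as it did over all probe sets. Their summed intensity was 48565 and 46413 in LT-HSC, 27658 on ST-HSC replicate 2 and 6224 on ST-HSC replicate 3, and the median gap between the ST-HSC arrays (replicate 3 minus replicate 2) was -1.41. The gap of Btg2 was -1.42 and -2.16 and that of Gadd45b -0.39 to -0.74. That of Btg2 lay at or beyond this median and that of Gadd45b short of it, while Ccng1 read higher on ST-HSC replicate 3. The same median gap was 0.03 over all tested genes, -0.44 in the p53 targets and 0.07 in the p53 regulators. It was -0.50 in the BTG and TOB partners and -0.06 in the Gadd45 partners. In a list of 17 G2 and mitosis genes, 15 were higher in ST-HSC and 0 in LT-HSC (median -2.55), with 0 and 2 called without LT-HSC replicate 1 and 2. Their part, and that of the plasma cell and B cell markers, in the levels of Btg2, Gadd45b and Ccng1 was not tested.

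**Figure D4:**
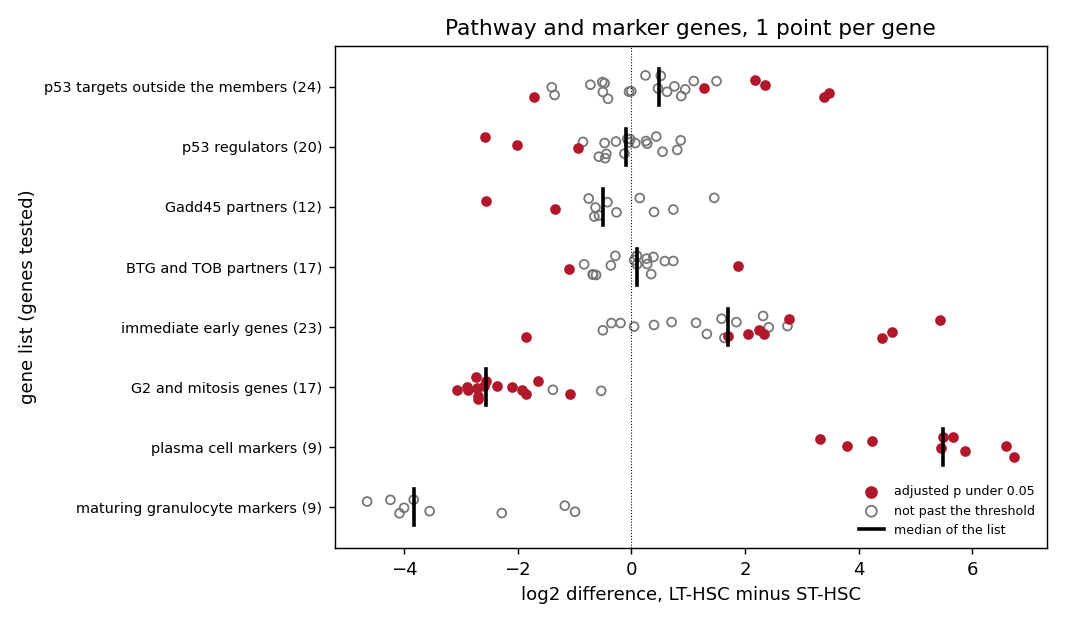
Log2 difference, LT-HSC minus ST-HSC (x axis), of each tested gene of 8 lists (rows, number of genes in brackets), filled red where the adjusted p was under 0.05; black bars are list medians. The p53 targets have a median of 0.50 and the immediate early genes of 1.71, while the G2 and mitosis genes lie at -2.55.

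The genes with the most similar profile were sought for Btg2 and Gadd45b, whose brightest probe set passed, as the smallest Euclidean distance of mean-centred log2 values over the 4 arrays among 12832 genes. For Btg2 they were Zfp467 (distance 0.143), which read 1117 and 923 for LT-HSC against 349 and 68.1 for ST-HSC, and Prdm2 (0.201), with 926 and 979.8 against 348 and 56.1. For Gadd45b they were Ptpn22 (0.0781), with 866 and 775 against 209.7 and 127, and Serp1 (0.114), with 5111 and 4841 against 1009 and 803. With 4 arrays such neighbours describe these samples only.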

How the data were processed

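Per the labels' protocols, Trizol RNA of 2 LT-HSC and 2 ST-HSC samples went through 2 amplification rounds and biotin labelling. The deposited values are linear intensities, with 1 value for each probe set on each array. How probes were summarised and whether arrays were scaled is not stated in the labels. Of 45101 probe sets, 64 controls were left out. Array medians spanned 0.33 on the log2(intensity + 16) scale, so arrays were quantile normalized. Probe sets with a mean above the 40th percentile (27022) were tested with limma 3.58.1 in R 4.3.3 (lmFit, eBayes with intensity trend; 2 residual and 4.84 prior degrees of freedom), two-sided. With 2 against 2 arrays an exact permutation test cannot go below p = 0.333, so none was used. The platform annotation gave 1 symbol to 34945 probe sets, several to 932 and none to 9160. The procedure was tested on simulated data. The remainder of the mouse genotype, shared by all 4 samples, is not reported here. The genes, lists and alternatives were chosen with earlier results of these data known. The rule for named genes took the 18 probe sets of the members, Cdkn1a and Mdm4. It also took the 2 most similar genes of each member whose brightest probe set passed. As planned, the rule also took up to 3 genes of smallest p from each list. This part was applied only to the p53 targets, p53 regulators, Gadd45 partners and BTG and TOB partners. Tigar, Xpc, Myc and the cell type and sort markers named fall outside the rule as applied. Promoter sequences are RefSeq's (GRCm38.p6) and were found for all 8 genes measured.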

Additional observations from a re-analysis of the deposited data

How the results depend on the processing

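Of the 16 tested probe sets, 15 kept their direction under every alternative run. The exception was Mdm2 1427718_a_at, which was never called and turned to -0.04 with no normalization between arrays and, with an array left out, ran from -0.10 (without ST-HSC replicate 2) to 0.31. The count of the 16 called higher in LT-HSC was 5, and 0 to 9 with an array left out, and the count called higher in ST-HSC was 0, and 0 to 1 with an array left out. With all 4 arrays, the count higher in LT-HSC was 4 with a pseudocount of 1, with no filter and without the intensity trend. These 3 settings called 5.52% to 11.1% of all probe sets. The count higher in ST-HSC was 1 (Gadd45a) with no normalization, with median or 75th percentile centring, with a 60th percentile filter and at a threshold of 0.10. The settings that called Gadd45a called 12% to 21.3% of all probe sets, against 12.2% in the main fit. Averaging probe sets per gene also gave 1, with 19.6% of all genes called. Over all probe sets, 1816 were called higher and 1480 lower in LT-HSC, against 2748 and 3001 at a threshold of 0.10. With an array left out these counts ran from 401 to 4247 and from 13 to 4527. The cause was not tested, and such fits have 1 residual degree of freedom. Of 446 values of 32 single probe sets under the alternatives, 370 kept their direction and side of the threshold, 52 lost a call, 22 gained one and 2, both of Mdm2 1427718_a_at, reversed. No paired analysis was possible because the groups share only replicate number 2. With 2 arrays per group, and no detection calls used here, dim probe sets such as Tob1 1440844_at carry little information.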
